A study of Mus musculus with 6 samples.

Results

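Rtl8a, Rtl8b and Rtl8c are 3 of the 32903 genes measured in MuTuDC1940 cells with and without poly(I:C). They are mouse members of a small X-linked family that descends from the gag gene of an LTR retrotransposon. Their symbols define the set. They were chosen by their measured TPM in these same libraries, high without and low with poly(I:C), so the difference between the groups is given for them as a description and without a test. MuTuDC1940 is a line of mouse dendritic cells resembling the type 1 conventional subset (cDC1), and a single line gives no view of other dendritic cells. Poly(I:C) stands in for the double-stranded RNA of viruses. The treated group received it at 5 µg/ml for 18 hours and the untreated group received none, and polyadenylated RNA of both was sequenced. Each group has 3 samples. The libraries used are those in the columns headed NT01 and NT02 (untreated) and PolyIC01 and PolyIC02 (treated), 2 per group, since the header of the deposited table does not settle which samples the other 2 columns hold. Expression is given as TPM, a length-corrected transcript level relative to a total of 1000000 in each library, which keeps no record of sequencing depth. In bulk RNA, fewer expressing cells and less RNA per cell cannot be told apart.

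Rtl8 genes belong to the sushi-ichi-related retrotransposon homologues, genes that mammals took over from Ty3/gypsy-type retroelements and kept for host functions. Their best known relative is Peg10, an imprinted gene needed for the placenta. RTL8 proteins are short gag-like proteins that bind ubiquilins, shuttle factors that carry ubiquitin-marked proteins to the proteasome, and RTL8 has been linked to the movement of ubiquilin 2 into the nucleus. The family is mostly known from placenta and brain.

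The 3 genes lie within 62.5 kb of the X chromosome (chrX:53607922-53670437, GRCm38, RefSeq annotation). Rtl8c (gene ID 72865) is on the plus strand at 53607922 to 53609135. Rtl8a (gene ID 66158) is on the minus strand at 53642488 to 53643763, and Rtl8b (gene ID 553127) is on the same strand at 53669165 to 53670437. RefSeq gives each gene 1 transcript, and GENCODE M21 gives each of them a single exon. The coding sequence, stop codon included, is 342 bases long in Rtl8a and Rtl8b and 339 bases long in Rtl8c.

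Rtl8a and Rtl8b are identical over all 342 coding bases of the reference (100% identity), whereas both align to Rtl8c with 80.9% identity. The stretches below show this for 90 coding bases of each gene, read 5′ to 3′ on the coding strand from the GENCODE M21 transcripts (GRCm38). Capitals mark the 10 positions at which Rtl8c differs from the other members.
Rtl8a: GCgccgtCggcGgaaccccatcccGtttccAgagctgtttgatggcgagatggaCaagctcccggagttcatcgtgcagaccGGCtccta
Rtl8b: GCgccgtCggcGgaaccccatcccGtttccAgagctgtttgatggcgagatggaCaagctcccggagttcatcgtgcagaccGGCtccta
Rtl8c: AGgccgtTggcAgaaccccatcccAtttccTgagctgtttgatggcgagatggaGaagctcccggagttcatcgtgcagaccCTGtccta
They lie at chrX:53643473-53643562 (minus strand), chrX:53670150-53670239 (minus strand) and chrX:53608102-53608191 (plus strand), in this order.

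This likeness sets how far the members can be separated. Over the whole GENCODE transcripts Rtl8a and Rtl8b are 94.7% identical. Of the 31-base words of the Rtl8a transcript, 90.2% also occur in a transcript of another gene, and of those of Rtl8b 85.1% do. These words are of the length kallisto uses by default to assign reads. For Rtl8c, whose GENCODE transcript is only 401 bases long, the share is 9.7%. The division of TPM between Rtl8a and Rtl8b is therefore uncertain, and their sum is given beside the separate values. In the part compared, Rtl8c is distinct enough to be read on its own. The deposited table lists RefSeq transcripts, and the RefSeq gene of Rtl8c is longer (1214 bases) than the stretch compared.

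The windows around the RefSeq start sites differ more than the coding parts. Over the 300 bases from 250 before to 50 after the start, identity was 58.0% between Rtl8a and Rtl8b, 56.4% between Rtl8b and Rtl8c and 49.1% between Rtl8a and Rtl8c. The sequences below (RefSeq, GRCm38.p6) run from 250 bases before the start to the first 20 transcribed bases. Columns with a gap count as differences in the identities above. The sequences are shown because all 3 genes were lower with poly(I:C) while no stretch identical between members here was longer than 44 bases. Capitals mark stretches of at least 15 bases that are identical in another member and lie wholly within the printed sequences. Likeness broken by mismatches or gaps is not marked, and Rtl8b and Rtl8c also resemble each other outside the capitals.
Rtl8a: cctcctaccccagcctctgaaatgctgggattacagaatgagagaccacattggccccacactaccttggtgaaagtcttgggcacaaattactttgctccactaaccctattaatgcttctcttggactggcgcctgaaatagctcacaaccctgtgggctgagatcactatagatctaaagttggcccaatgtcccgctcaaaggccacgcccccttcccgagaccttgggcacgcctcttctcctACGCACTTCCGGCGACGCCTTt
Rtl8b: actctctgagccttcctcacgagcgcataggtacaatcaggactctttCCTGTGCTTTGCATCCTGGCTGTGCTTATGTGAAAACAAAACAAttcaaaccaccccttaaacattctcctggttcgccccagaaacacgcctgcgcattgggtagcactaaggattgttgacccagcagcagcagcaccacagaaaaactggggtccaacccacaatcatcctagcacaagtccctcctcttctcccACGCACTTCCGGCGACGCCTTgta
Rtl8c: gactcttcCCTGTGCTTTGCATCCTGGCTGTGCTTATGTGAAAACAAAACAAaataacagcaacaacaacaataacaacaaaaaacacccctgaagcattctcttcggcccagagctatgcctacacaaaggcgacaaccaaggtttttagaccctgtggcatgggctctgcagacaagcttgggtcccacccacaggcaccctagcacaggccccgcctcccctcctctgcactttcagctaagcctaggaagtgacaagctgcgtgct
They lie at chrX:53643744-53644013 (minus strand), chrX:53670418-53670687 (minus strand) and chrX:53607672-53607941 (plus strand).

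Rtl8a and Rtl8b share a stretch of 21 bases across the start site (positions -2 to 19 in Rtl8a and -4 to 17 in Rtl8b). It adjoins another of 27 bases, at positions 19 to 45 of Rtl8a and 16 to 42 of Rtl8b and so mostly beyond the printed part. Rtl8b and Rtl8c share 44 bases further upstream (positions -202 to -159 in Rtl8b and -242 to -199 in Rtl8c). The 21-base stretch holds ACTTCCGG, a site type of ETS factors, which was searched for after the sequence had been seen. On either strand it occurs in 3.89% of the 32851 RefSeq windows of this length. This exact sequence was not found in the window of Rtl8c. Other forms of the ETS site were not searched for, so its absence does not show that Rtl8c lacks a site of this type. The core of the interferon-stimulated response element, GAAANNGAAA, occurs in 3.44% of windows and the STAT site TTCNNNGAA in 8.3%, and neither was found in any of the 3 windows. These matches describe letters in the windows and say nothing of binding.

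The Rtl8 genes were among the more abundant transcripts of untreated cells and were about 4-fold lower with poly(I:C). Rtl8b, the highest of them, measured 649 and 639.9 TPM without poly(I:C) and 140.2 and 160.1 TPM after it. Rtl8a was at 468 and 462 TPM untreated and 128 and 132 TPM under poly(I:C). Rtl8c was at 399 TPM in both untreated libraries and at 80.0 and 85.1 TPM in the treated ones. Every treated value was far below every untreated value of the same gene. The groups did not overlap in 3 of 3 members, as was so in this direction for 42.4% of all 12520 tested genes.

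**Figure D1:**
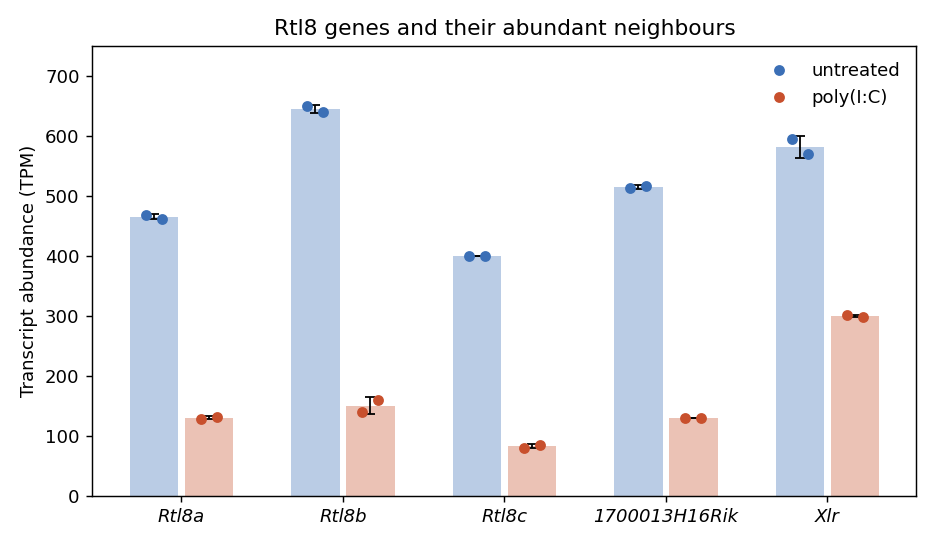
Transcript abundance (TPM) of the Rtl8 genes and of the neighbouring genes 1700013H16Rik and Xlr, with a point per library, bars for the mean of 2 libraries and error bars for the SD. The treated libraries of the Rtl8 genes lie between 80.0 and 160.1 TPM and the untreated ones between 399 and 649 TPM.

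The mean of Rtl8a was 465 ± 4.47 TPM in untreated and 129.8 ± 2.65 TPM in treated cells (SD, n = 2 per group here and below), 3.58-fold lower. Its difference on the log2(TPM + 1) scale was -1.83 (SE 0.027). Rtl8b went from 644 ± 6.48 to 150.1 ± 14 TPM, 4.29-fold lower, with a log2 difference of -2.10 (SE 0.064). For Rtl8c the means were 399 ± 0.346 and 82.6 ± 3.61 TPM, 4.83-fold lower, with a log2 difference of -2.26 (SE 0.036). Summed, the family held 1516 and 1501 TPM without poly(I:C) and 348 and 377 TPM with it. The treated mean was thus 1146 TPM or 4.16-fold lower, with a log2 difference of -2.06 (SE 0.057).

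The pair with identical coding sequence was also summed because reads cannot be divided well between its members. Rtl8a plus Rtl8b stood at 1117 and 1102 TPM untreated and 268 and 292 TPM under poly(I:C), 3.96-fold lower. Set over each untreated library in turn, 24.0% to 26.5% of the pair's level was left in the treated libraries. For Rtl8c 20% to 21.3% was left, a range that does not overlap that of the pair. Taken alone, Rtl8a kept 27.3% to 28.5% and Rtl8b 21.6% to 25.0%, and the range of Rtl8b comes close to that of Rtl8c. Whether the members differ in their response was not tested, since all these values belong to the contrast that picked them.

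The order of the members was the same in all 4 libraries, with Rtl8b above Rtl8a and Rtl8a above Rtl8c on the TPM scale. In untreated cells the gaps between neighbours in this order were far larger than the difference between libraries. In treated cells the nearest values of Rtl8a (132 TPM) and Rtl8b (140.2 TPM) lay closer to each other than the libraries of Rtl8b did, so their order there does not stand out from the spread, whereas Rtl8c lay clearly below both. Rtl8c gave 26.3% and 26.6% of the family's TPM in untreated cells and 23.0% and 22.6% in treated cells. The share of Rtl8a was 30.9% and 30.8% without and 36.7% and 34.9% with poly(I:C), and that of Rtl8b was 42.8% and 42.6% without and 40.3% and 42.5% with it. The last 2 shares carry the uncertainty of the split.

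Few genes that were as abundant in untreated cells were as much lower with poly(I:C). By level, Rtl8b ranked 201 and 204 among the 32903 genes in the untreated libraries and 1151 and 990 in the treated ones. Rtl8a went from ranks 273 and 280 to 1281 and 1235, and Rtl8c from 337 and 335 to 2069 and 1944. Ordered by the difference on the log2(TPM + 1) scale from the most negative upward, Rtl8c was at place 7, Rtl8b at place 14 and Rtl8a at place 23 of the 12520 genes tested. A difference of -1 or lower was seen in 2.82% of these genes. Among the 1589 genes with at least 100 TPM in the untreated mean, a limit set after the values were seen, Rtl8c had the second lowest ratio of treated to untreated TPM, Rtl8b the third and Rtl8a the sixth. These places restate the contrast by which the genes were picked.

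**Figure D2:**
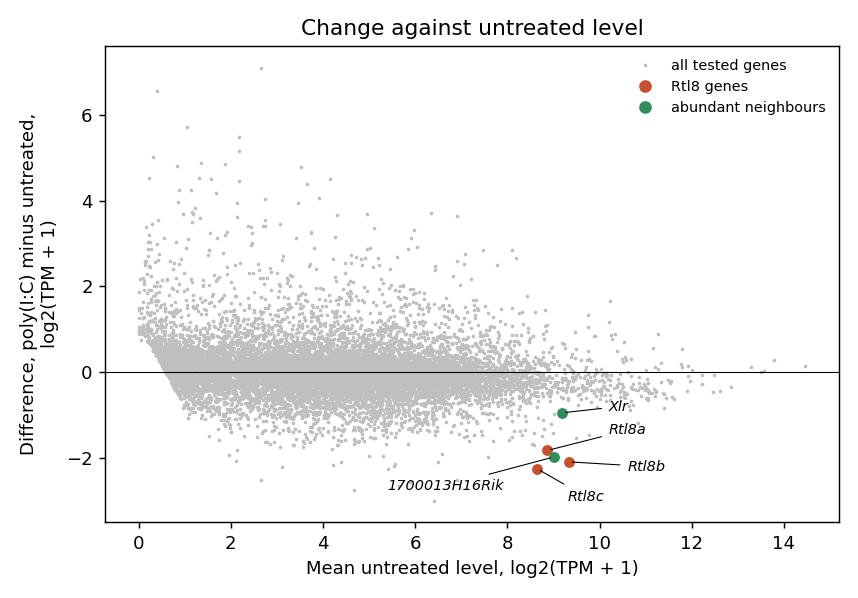
Difference between poly(I:C) and untreated libraries against the untreated level, both on the log2(TPM + 1) scale, with a grey point for each of the 12520 tested genes. The Rtl8 genes (-1.83 to -2.26) and 1700013H16Rik (-1.98) lie below nearly all genes of similar untreated level.

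The libraries followed their labels for the response and for the cell type. The interferon-response genes Irf7 (0.232 and 0.247 TPM untreated, 41.4 and 37.5 TPM treated) and Isg15 (81.4 and 78.2 TPM against 1078 and 1038 TPM) rose (adjusted p = 1.05e-06 and 3e-07 in limma), as did all 6 genes of the response list. All 8 cDC1 markers reached a mean of 0.5 TPM, though Itgae stayed under 1 TPM. Their summed level, most of it Irf8, ran from 3127 to 3163 TPM without poly(I:C) and from 3391 to 3457 TPM with it. Within the list 5 rose, among them Xcr1 (192 ± 2.53 to 331 ± 6.38 TPM), and 2 fell, Flt3 (9.52 ± 0.548 to 5.31 ± 0.435 TPM) and Batf3 (144 ± 1.74 to 117 ± 4.0 TPM). For both lists the background is that 28.4% of all 12520 tested genes rose and 32.4% fell (adjusted p under 0.05 in limma). Of markers for other cells, Cd3e, Cd3g and Col1a2 were listed at 0 in all 4 libraries. The macrophage and monocyte list summed to 472 and 470.2 TPM untreated and 346 and 359 TPM under poly(I:C), nearly all of it from Lyz2 and Cd68, while Mertk stayed under 0.05 TPM and Csf1r under 0.5 TPM. Lyz2 fell, from 218 and 217 TPM to 98.9 and 107 TPM (adjusted p = 1.65e-05 in limma), and Cd68 did not pass. Fcgr1, of the same list, was at 0.356 and 0.299 TPM against 4.76 and 4.66 TPM and rose (adjusted p = 1.87e-05), as did Pacsin1 of the plasmacytoid dendritic cell list (0.402 and 0.318 against 3.9 and 4.02 TPM, adjusted p = 3.13e-05). Irf7, Fcgr1 and Pacsin1 reached the expression limit only through the treated libraries. Cox6a2, which made up most of the plasmacytoid list, went the other way (16 ± 0.0199 to 12 ± 0.251 TPM, adjusted p = 0.00174), and the T cell gene Cd3d rose from 0.842 ± 0.233 to 1.53 ± 0.0861 TPM (adjusted p = 0.0187). Summed levels in all 4 libraries were 0.678 to 1.59 TPM for the T cell list and 16.5 to 17.2 TPM for the plasmacytoid dendritic cell list. For the epithelial and stromal list they were 7.9 to 11.7 TPM, most of it Epcam, which fell from 9.71 ± 0.878 to 7.31 ± 0.0852 TPM (adjusted p = 0.0108 in limma). Cdh1 of that list fell from 1.23 ± 0.048 to 0.387 ± 0.0293 TPM (adjusted p = 0.00151 in limma), reaching the expression limit only through the untreated libraries. The part of these cells in the lower Rtl8 values was not tested.

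The chromosomal surroundings of the Rtl8 genes were examined next, by taking the 10 genes on each side in the RefSeq table. Of these 20 genes, 13 had values and 7 reached the expression limit of 0.5 TPM in the mean of the 4 libraries. Of the 7, 5 fell with poly(I:C), the threshold being an adjusted p under 0.05 in limma (Benjamini-Hochberg over all 12520 genes), and 2 passed in neither direction. Of all tested genes 32.4% fell and 28.4% rose. The median log2 difference was -0.63 for the 7 and -0.02 over all genes tested. The 5 include AW822252, which reached the limit only through the untreated libraries, where it was higher; with a limit of 2 TPM, 4 neighbours fell. Nothing in the labels states that replicates were grown separately, so a p-value here reflects only library-to-library spread, possibly technical.

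The deepest fall among the neighbours on the log2(TPM + 1) scale was that of 1700013H16Rik, a protein-coding gene that starts 72.5 kb from the cluster (chrX:53742901-53757970). Its level was 513 and 517 TPM without poly(I:C) and 129 and 130.1 TPM with it. Its untreated level lies between those of Rtl8a and Rtl8b, and so do the shares of it that were left, 25.1% and 25.3% of the untreated mean. The means were 515 ± 2.47 and 129.6 ± 0.687 TPM, 3.98-fold lower, with a log2 difference of -1.98 (SE 0.024, adjusted p = 4.73e-07 in limma). Most of this signal came from a predicted RefSeq transcript (488 and 492 TPM untreated, 125 and 126 TPM treated). The curated transcript showed a fall as well, from 25.4 and 24.8 TPM to 4.06 and 4.31 TPM. None of the 31-base words of this gene's GENCODE transcript occurs in another gene, the Rtl8 genes included. The predicted transcript was not compared in this way.

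Xlr, an X-linked lymphocyte-regulated gene that encodes a nuclear protein, lies 107 kb from the cluster (chrX:53777118-53797716). It was at 595 and 569 TPM without poly(I:C) and at 301 and 298 TPM with it, so that the treated values were 51.8% and 51.2% of the untreated mean. The log2 difference was -0.95 (SE 0.03, adjusted p = 7.9e-06 in limma). Of the 31-base words of its GENCODE transcripts, 24.4% are shared with other genes, which makes its level less certain. Together with the 3 Rtl8 genes, 1700013H16Rik and Xlr were the most abundant of the 14 genes tested within 2.5 Mb on either side, each with an untreated mean between 399 and 644 TPM.

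The remaining neighbours were expressed at lower levels than these. On the side of Rtl8c, Mospd1, which encodes a membrane protein with a motile sperm domain, went from 29.6 ± 1.05 to 22.7 ± 0.915 TPM (log2 difference -0.37, adjusted p = 0.00207 in limma). Fam122b, which encodes a regulator of a protein phosphatase, went from 7.26 ± 0.18 to 4.34 ± 0.456 TPM (-0.63, adjusted p = 0.00189). They lie 237 kb and 338 kb away. On the side of Rtl8b, the non-coding gene AW822252 at 26.5 kb was at 0.855 and 0.908 TPM untreated and 0.269 and 0.161 TPM under poly(I:C). It fell (-0.63, adjusted p = 0.00293), with the difference partly built in by the expression limit. As a ratio of mean TPM, AW822252 was 4.1-fold lower, at levels near the limit. Ct55, at 54.2 kb, was at 0.54 and 0.423 TPM without poly(I:C) and 0.86 and 0.603 TPM with it and did not pass (adjusted p = 0.152). Zfp36l3, an RNA-binding protein gene of the placenta and the last of the 7, also did not pass (1.49 and 1.24 against 0.96 and 0.954 TPM, adjusted p = 0.059).

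**Figure D3:**
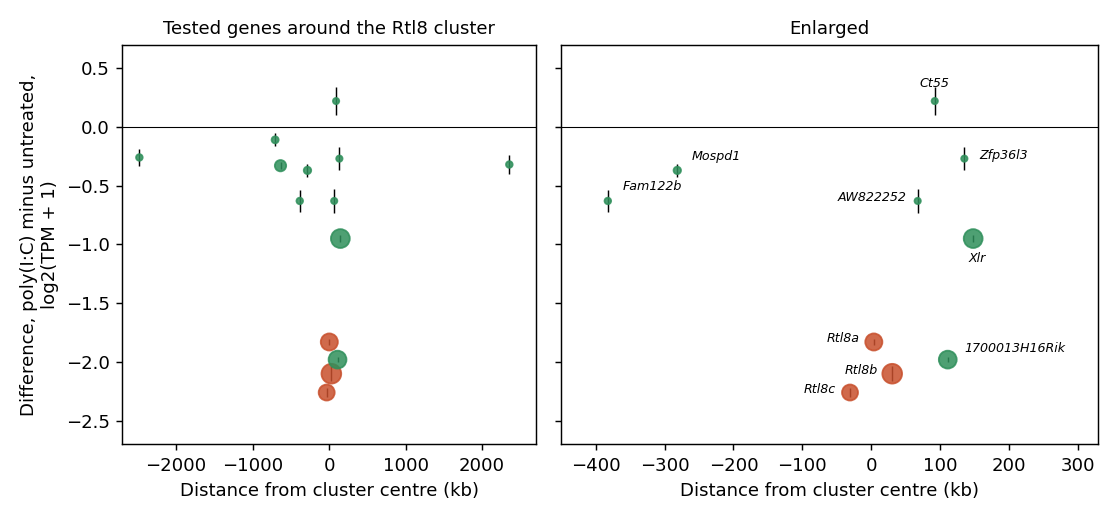
Difference between poly(I:C) and untreated libraries, on the log2(TPM + 1) scale with SE, for the 14 tested genes within 2.5 Mb of the Rtl8 cluster, against the distance of each gene's middle from the cluster's centre; the right panel enlarges the inner part. Red points are Rtl8 genes, green points other genes, and larger points have higher untreated TPM; the 5 lowest points are the 3 Rtl8 genes, 1700013H16Rik (-1.98) and Xlr (-0.95).

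Across the X chromosome as a whole the balance was shifted less. Of 347 X-linked genes tested other than the Rtl8 genes, 134 fell (38.6%) and 75 rose (21.6%), with a median log2 difference of -0.08. On the 19 autosomes the share that fell ranged from 29.2% to 35.1% and the share that rose from 26.3% to 35.7%. The X chromosome thus had the highest share of falls and the lowest share of rises among these 20 chromosomes, by a few percentage points, and this difference was not tested. Only Cxcr3, a chemokine receptor gene, had a larger fall than 1700013H16Rik among these X-linked genes (42.0 and 41.5 against 7.72 and 8.16 TPM, log2 difference -2.26, adjusted p = 3.06e-06 in limma). It is named because of these values, and no rule picked it.

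Other genes derived from gag sequences were nearly silent in these cells. Of 22 such genes listed (other Rtl genes, Peg10, the Pnma family, Arc and a few more), 20 had values, 6 of them were listed at 0 in all 4 libraries, and 5 reached the expression limit. Peg10, Rtl3, Rtl6 and Ldoc1 were among those listed at 0. The whole list summed to 9.75 and 8.52 TPM in untreated and 11.1 and 10.4 TPM in treated cells, far below any single Rtl8 gene. Among the 5 tested, 2 passed as higher with poly(I:C) and 1 as lower, the other 2 missed the threshold, and the median log2 difference was 0.20. These are 40.0% higher and 20% lower, where all tested genes gave 28.4% and 32.4%, and 5 genes are too few to read a difference from that.

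Fv1, a gag-derived gene that restricts murine leukaemia viruses, was the tested gene of this list that fell. It was at 4.64 and 3.97 TPM untreated and 1.95 and 2.56 TPM under poly(I:C) (log2 difference -0.71, SE 0.13, adjusted p = 0.00501 in limma). Rtl5, the only other Rtl gene above the limit, was at 1.6 and 1.83 TPM without poly(I:C) and 1.58 and 1.46 TPM with it and did not pass (-0.11, adjusted p = 0.374). Pnma1, of the paraneoplastic antigen family, rose from 2.02 ± 0.184 to 4.34 ± 0.281 TPM (0.82, adjusted p = 0.00085). Arc, whose gag-like protein forms capsids in neurons, went from 0.119 and 0.0431 TPM to 1.17 and 1.16 TPM (1.00, adjusted p = 0.000399), but it reached the limit only through the treated libraries. Moap1, a pro-apoptotic gene of the Pnma family, varied within both groups (1.05 and 0.536 against 1.35 and 0.763 TPM) and did not pass (adjusted p = 0.43).

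Genes of the ubiquilin pathway, to which RTL8 proteins bind, changed little by comparison. All 8 listed genes were tested, with 3 that fell, 2 that rose and 3 that missed the threshold. Their median log2 difference was -0.14. The shares, 37.5% lower and 25.0% higher, are near those of all tested genes (32.4% and 28.4%). The genes that fell were the 3 ubiquilins. Ubqln4 went from 53.7 and 51.1 TPM to 33.2 and 33.7 TPM (log2 difference -0.63, SE 0.043, adjusted p = 0.000105 in limma). Ubqln1 was at 151 and 150.2 TPM untreated and 125 and 124 TPM under poly(I:C) (-0.28, adjusted p = 0.000373). Ubqln2 went from 17.2 ± 0.635 to 14.8 ± 0.185 TPM (-0.20, adjusted p = 0.0232), a call that was lost without NT01, without PolyIC01 or without PolyIC02. A fit without 1 library leaves a lone sample in its group, which is assumed to vary like the other group. Hspa8, the constitutive heat shock chaperone, rose from 2565 ± 46.6 to 2969 ± 57.3 TPM (0.21, adjusted p = 0.000887). The other rise, of the ubiquitin ligase gene Ube3a (0.20, adjusted p = 0.0495), was lost under 4 of 10 alternatives, among them without NT02 and without PolyIC01. All of these changes were small beside the 3.58-fold to 4.83-fold differences of the Rtl8 genes. Those genes were picked for a large difference in these same libraries, so the contrast in size follows in part from that choice.

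Genes that silence retroelements and other chromatin mostly fell, by modest amounts. Of 19 genes for DNA methylation, H3K9 methylation, heterochromatin proteins and the HUSH complex, all were tested. Of these 13 fell (68.4%, against 32.4% of all tested genes), 3 rose and 3 missed the threshold, and the median log2 difference was -0.32. The list was chosen with earlier results of these data known, and whether its share differs from that of all genes was not tested. The largest falls were in the H3K9 methyltransferase genes Suv39h1 (30.7 and 28.1 against 16.4 and 16.6 TPM, log2 difference -0.79, adjusted p = 0.000151 in limma) and Suv39h2 (6.72 ± 0.186 to 3.93 ± 0.206 TPM, -0.65, adjusted p = 0.00102). Morc2a, which works with HUSH, fell from 64.1 ± 6.14 to 40.8 ± 0.614 TPM (-0.64, adjusted p = 0.00061). Tasor, which encodes a core subunit of HUSH, moved the other way, from 9.92 and 9.37 TPM to 17 and 15 TPM, and rose (0.67, adjusted p = 0.000845). The number of genes that rose was 5 rather than 3 without NT01.

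**Figure D4:**
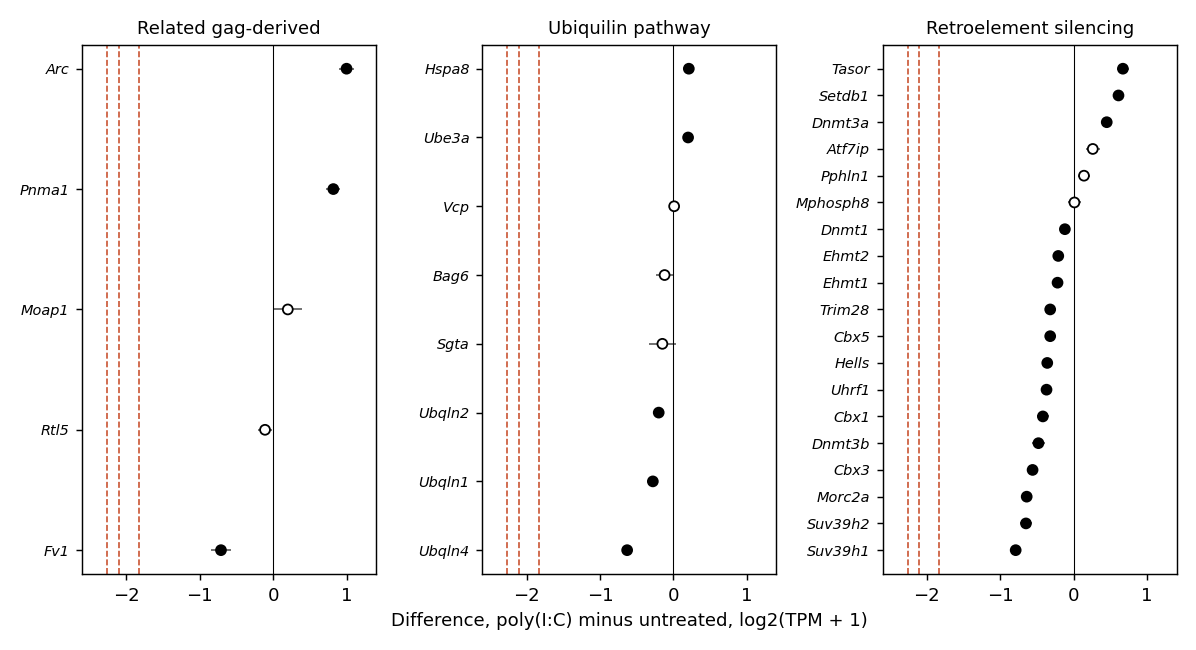
Difference between poly(I:C) and untreated libraries, on the log2(TPM + 1) scale with SE, for the tested genes of 3 lists; filled points have an adjusted p under 0.05 in limma and open points do not. Dashed red lines mark the Rtl8 genes at -1.83, -2.10 and -2.26, to the left of every listed gene. The Rtl8 genes were picked for large falls in this contrast.

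The genes whose pattern over the 4 libraries came closest to that of the family sum were sought next. The search took the 237 tested genes outside the family with a standard symbol and a mean TPM within 2-fold of that sum. Genes with a Gm number, Rik or LOC name were left out. Likeness was measured as the Euclidean distance between log2(TPM + 1) values centred on each gene's mean. The nearest was the histone H2A gene H2ac23 (distance 0.544), at 668 and 777 TPM without poly(I:C) and 239 and 257 TPM with it. Next came Dbi, which encodes an acyl-CoA binding protein (0.59; 859 and 875 against 312 and 311 TPM), and the matrix protease gene Mmp9 (0.859; 1833 and 1806 against 770.4 and 817 TPM). The ribosomal protein gene Rps4x (1.18) and the actin-binding protein gene Cotl1 (1.25) followed. Their log2 differences ran from -0.81 to -1.54, all smaller in size than the -2.06 of the family sum. The search could not return the neighbour 1700013H16Rik, which was left out by its Rik name and its lower level. The log2 difference of 1700013H16Rik, -1.98, was nearer to that of the family sum than those of the genes found. No distance is given for it.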

How the data were processed

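Polyadenylated RNA was sequenced from directional libraries, per the labels' protocols. Per the submitters' processing notes, kallisto 0.42.4 and bcl2fastq 2.20.0.422 were used with GRCm38; the annotation release and options are not given in the sources used here. The authors' deposited table is named for FPKM, but each column used sums to 1000000, so its values per RefSeq transcript are read as TPM. The header has 5 names for 6 value columns, so 4 columns whose group is clear were used and 2 were left out. TPM keep no depth, so no counting interval can be given and an entry of 0 is read only as listed at 0.

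Of 107384 transcripts, 86722 (80.8%) matched a RefSeq symbol (GRCm38.p6) by accession without version, and their TPM were summed to 32903 genes. The 12520 genes whose mean reached 0.5 TPM were fitted on log2(TPM + 1), which understates changes of low genes, with limma 3.58.1 in R 4.3.3 (intensity trend, robust moderation, 2 residual degrees of freedom), with Benjamini-Hochberg adjustment and a threshold of 0.05. The script was tested on simulated data. SE of Rtl8 sums come from their own values. Sequences were compared with Biopython 1.88 on GENCODE M21 and RefSeq tables; plots were drawn with matplotlib 3.10.9 in Python 3.11.15, tables made with numpy 2.4.6 and pandas 2.3.3. The Rtl8 genes and all lists were chosen with earlier results of these data known. Named were the Rtl8 genes, tested gag-derived genes, ubiquilins and up to 4 passing genes per list with the largest change. Also named were the 2 nearest tested neighbours per side, the 2 with the largest change and the 5 nearest patterns. Alternatives were another pseudocount, expression limit or scaling, curated transcripts alone, plain limma, a replicate block and leaving out each library. A marker list for another cell type is not reported here.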

Additional observations from a re-analysis of the deposited data

How the results depend on the processing

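The log2 differences of the Rtl8 genes and their sums moved by less than the spread between libraries under every alternative run. The block, the expression limit and the restriction to curated transcripts could not move the log2 differences at all. The design is balanced and each gene has 1 transcript, which is curated and far above the limit. Leaving out 1 of 2 libraries moves a group's mean by less than its SD whatever the values. Those runs therefore had to stay within the spread and are given only as values. Leaving out each library in turn gave -1.81 to -1.85 for Rtl8a, -2.0 to -2.19 for Rtl8b, -2.22 to -2.3 for Rtl8c, -2.0 to -2.11 for the family sum and -1.92 to -2.04 for Rtl8a plus Rtl8b, a sum added after seeing the data. The count of related gag-derived genes that rose was 1 with a limit of 2 TPM, which leaves out Arc. The count of ubiquilin pathway genes that rose was 1 with no expression limit, 1 in limma without trend or robust moderation, and 1 to 2 when each library was left out. The count of silencing genes that rose was 3 to 5 when each library was left out. The numbers in the headings need not pair the libraries, since the header can be read in 2 ways, and the deviations of same-numbered libraries had a correlation of 0.0218 across genes. A replicate block from the headings gave 5 silencing genes that rose, 3780 genes higher and 4277 lower (3556 and 4062 without it). Of the neighbours, 4 to 6 fell under all alternatives, curated transcripts alone (also added after seeing the data) giving 5. The causes were not tested. With 2 libraries per group and no depth, small differences such as those of Ubqln2 and Ube3a are the least certain.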

Other observations

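The numbered relatives of Xlr, which lie elsewhere on the X chromosome, showed nothing like its level. Of the 10 such genes in the table, Xlr3a was highest, with 2.61 and 2.41 TPM without poly(I:C) and 2.32 and 1.89 TPM with it. No value of the other numbered members was above 0.323 TPM. The placenta gene Plac1, another neighbour of the Rtl8 cluster, was listed at 0 in all 4 libraries.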
